A study of Trichoderma reesei with 24 samples.

Results

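The transcriptome of *Trichoderma reesei* was compared between the Δ*nsd3* strain and its parent after 48 h on cellulose, which takes 6 of the 24 RNA-Seq libraries of the study. The Δ*nsd3* group (3 libraries) is transformant #3 of a CRISPR-Cas9 deletion and has the genotype nsd3::pyr4, so it is 1 clone that also carries the *pyr4* marker. The WT group (3 libraries) is TU6, a strain derived from QM9414 that needs uridine. Effects of the deletion and of the marker therefore cannot be told apart here. Mycelia of both strains were pregrown for 24 h on glycerol, washed, and moved to cellulose, and the polyA RNA of 3 cultures per strain was sequenced. The study also holds 6 libraries from 8 h on cellulose, which share no library with the 48 h comparison and are used below to ask which strain effects belong to the later time, and 12 libraries from glucose or glycerol. Each strain was cultured in triplicate, and nothing more is said of how separate the cultures were, so the p-values measure the spread between these samples.

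*T. reesei* is a saprophytic ascomycete that lives on plant debris and secretes cellulases and hemicellulases when cellulose is the carbon source. Cellobiohydrolases and endoglucanases cut cellulose chains, lytic polysaccharide monooxygenases break them by oxidation, and β-glucosidases turn the released cellobiose into glucose. The activator Xyr1 is needed for most of these genes, while Cre1 represses them when an easily used sugar is present. Nsd3 is a C2H2 zinc finger transcription factor related to NsdC, which controls development in *Aspergillus* species.

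Values are the deposited TPM after rescaling by the median of ratios over all libraries, and fold changes are differences of the mean log2(rescaled TPM + 1), Δ*nsd3* minus WT, so changes of weakly expressed genes are understated. Calls required a log2 change of 1 or more in either direction together with a limma p-value under 0.05 after Benjamini-Hochberg adjustment over the 7933 genes tested. Depth, estimated from the steps between low TPM values, was 19.5 to 22.6 M reads in the Δ*nsd3* libraries and 18.2 to 28.3 M reads in WT. WT replicate 2 stood apart. Across genes it correlated with the other WT libraries by 0.949 and 0.943, where those correlated with each other by 0.985 and the Δ*nsd3* libraries with each other by 0.984 or more. The WT group at 48 h also had the widest spread of the 8 groups, with a median SD of 0.294 over genes on the log2 scale, against 0.163 in the Δ*nsd3* group at 48 h. The same fit spreads 1 variance over all groups, and a fit of the 6 libraries alone, with their own variance, called 504 genes up and 339 down.

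Over all genes, 698 were called up in the Δ*nsd3* strain (8.80%) and 356 down (4.49%), and the median log2 fold change was −0.01. Without WT replicate 2, 509 were called up (6.42%) and 316 down (3.98%), and 466 (5.87%) and 268 (3.38%) had the same call in both fits. Libraries of the strains did not overlap in 48.0% of genes. Few of the changed genes have a name, since 20 of the genes called up and 11 of those called down carry a symbol in the reference gene table. Functions were therefore followed through 19 lists of named genes, of which 176 genes were tested, with 17 called up and 12 down. The shares over all genes, 8.80% up and 4.49% down, are the measure for each list count at 48 h below. In bulk RNA, fewer cells with a transcript and less of it per cell cannot be told apart.

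**Figure D1:**
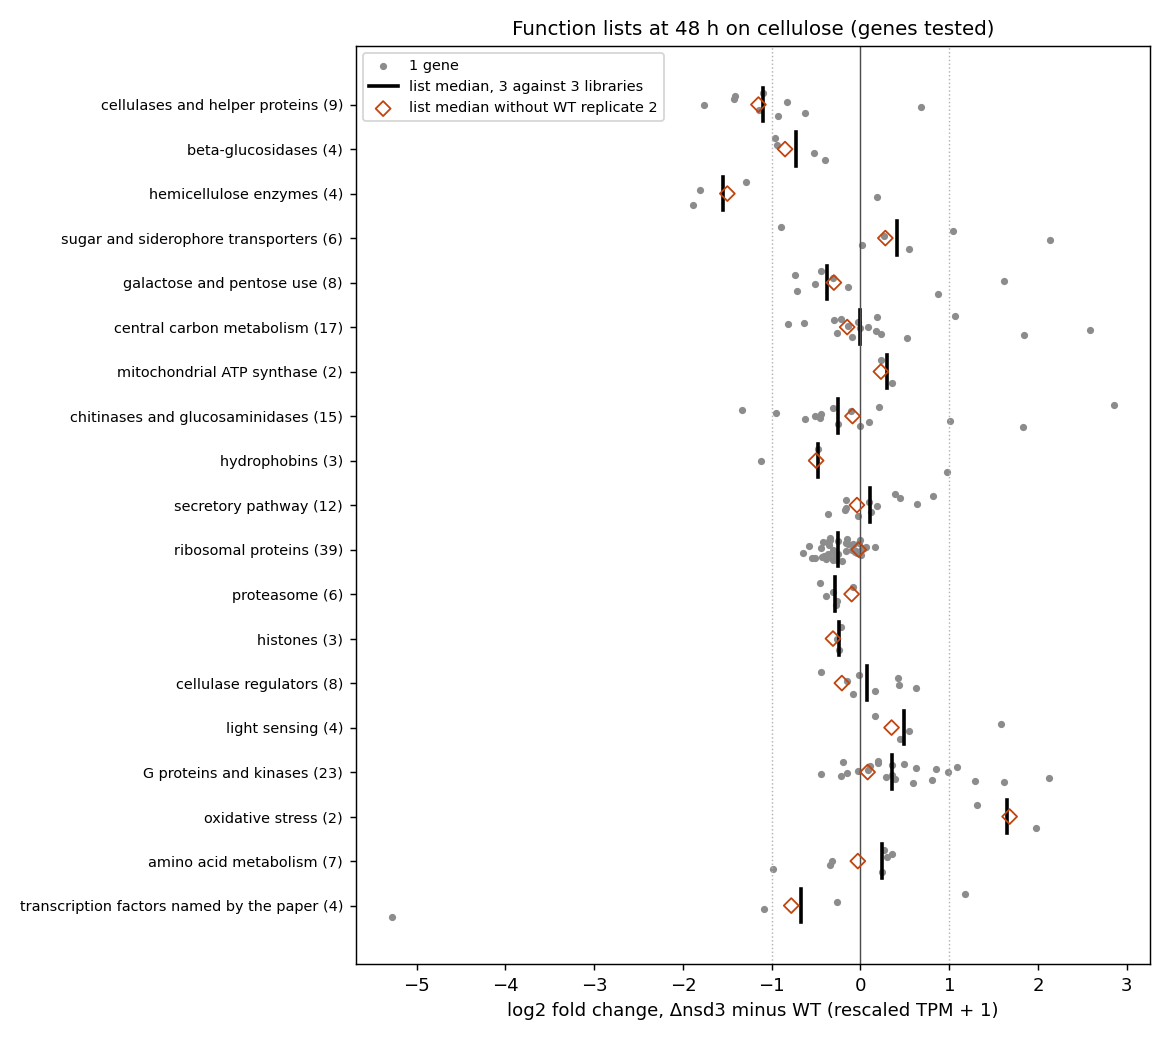
Log2 fold change (Δ*nsd3* minus WT, rescaled TPM + 1) after 48 h on cellulose for the genes of 19 function lists, with the number of genes tested in each. Grey points are genes, black bars are list medians over 3 against 3 libraries, and open diamonds are medians without WT replicate 2. Median values lie at −1.10 for cellulases and helper proteins and −1.55 for hemicellulose enzymes, and at 1.65 for the 2 oxidative stress genes.

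The targeted gene was checked first. *nsd3* (TRIREDRAFT_75672) had 0, 2.27, and 0.119 rescaled TPM in Δ*nsd3* replicates 1 to 3, against 49.4, 35.6, and 115 in WT replicates 1 to 3. The strains did not overlap, at −5.28 on the log2 scale (SE 0.42, adjusted p = 6.2e-09). In estimated reads, Δ*nsd3* replicate 2 held 96.9 from this gene while replicates 1 and 3 held 0 and 4.0, and 0 reads allow up to 3 by counting error alone. The same library had more residual signal than its fellow replicates in other strongly downregulated genes, as given with their values below. Leaving it out gave 682 genes called up and 386 down.

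Most listed genes for plant polymer breakdown were lower in the Δ*nsd3* strain at 48 h. The lists hold only genes with a symbol in the reference gene table or an identifier in the paper. They lack *cel6a*, *xyn1*, *xyn2*, and *bxl1*, which the study measured by RT-qPCR, so they are a part of this function. By RT-qPCR the study reported a smaller but still significant excess of *cel7a* in the Δ*nsd3* strain at later times on cellulose. It described a similar profile for *cel7b*, and higher cellobiohydrolase and β-glucosidase activities. The fold changes given below for *cel7a*, *cel7b*, and the listed β-glucosidase genes are negative. The reason for this difference was not tested. Of 17 listed enzymes and helper proteins, 8 were called down and none up, 14 had all 3 Δ*nsd3* libraries below all WT libraries (24.9% of all genes tested did), and the median log2 fold change was −0.96, beside −0.01 over all genes tested. Without WT replicate 2, 7 were called down and none up, with a median of −1.11. Together these genes made up 0.633, 0.556, and 0.484% of the deposited TPM in Δ*nsd3* replicates 1 to 3, against 1.19, 1.12, and 1.28% in WT. At 8 h the same 17 genes had gone both ways, with 3 called up (10.5% of all genes tested), 5 called down (5.95%), and a median of −0.10.

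Among the cellulases, the endoglucanase gene *cel12a* (TRIREDRAFT_123232) had 431, 395, and 374 rescaled TPM in the Δ*nsd3* libraries, against 1102, 1930.3, and 1167 in WT. Every Δ*nsd3* value was far under every WT value (log2 fold change −1.76, SE 0.42, adjusted p = 0.0022). The endoglucanase gene *cel5a* (TRIREDRAFT_120312) had 273, 259.5, and 231 in Δ*nsd3* libraries, against 593, 463, and 645 in WT. Its libraries did not overlap either, at a log2 fold change of −1.14 (SE 0.37, adjusted p = 0.016), but the call was lost without Δ*nsd3* replicate 3. *cip2* (TRIREDRAFT_123940), which encodes a secreted protein with a cellulose-binding module, had 23.8, 28.0, and 20.5 in Δ*nsd3* libraries, against 51.0, 49.2, and 57.8 in WT. The fold change of −1.10 had a small error (SE 0.17, adjusted p = 3.5e-05), and it was −1.0, just short of a call, without Δ*nsd3* replicate 3.

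A further pair of calls was less firm. *cip1* (TRIREDRAFT_73638), for another secreted protein with such a module, had 325, 347, and 311 in Δ*nsd3* libraries, against 701, 1194, and 799 in WT. The groups did not overlap, yet the value of −1.41 (SE 0.43, adjusted p = 0.011) became −1.19 (adjusted p = 0.054) without WT replicate 2. The lytic polysaccharide monooxygenase gene *cel61b* (TRIREDRAFT_120961) had 459.7, 525, and 497 in Δ*nsd3* libraries, against 1087, 1782, and 1203 in WT. Its −1.42 (SE 0.57) barely passed (adjusted p = 0.046) and failed with any 1 library left out and with replicates as a block, while the fit of the 6 libraries alone called it (adjusted p = 0.0087).

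The cellobiohydrolase gene *cel7a* (TRIREDRAFT_123989), the most abundant of these transcripts, had 1346, 1299, and 1287 in Δ*nsd3* libraries, against 2596, 2009, and 2967 in WT. The Δ*nsd3* values were all below WT, but the log2 fold change of −0.93 did not pass (SE 0.62, adjusted p = 0.22). The SE rests on the variance of all 8 groups, and in the fit of the 6 libraries alone the adjusted p of *cel7a* was 0.028, still under the fold threshold. That fit without WT replicate 2 called it down at −1.08. The endoglucanase gene *cel7b* had −0.62 (adjusted p = 0.012) and the monooxygenase gene *cel61a* −0.83 (adjusted p = 0.086, or 0.040 with the 6 libraries alone), neither of them called in either fit. *cel5b* was the exception in direction, with 35.5, 76.8, and 47.2 in Δ*nsd3* libraries and 27.5, 27.2, and 40.4 in WT, where the groups overlapped and the log2 fold change of 0.68 was under the threshold.

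None of the 4 β-glucosidase genes was called, and all 4 had negative values with a median of −0.73. The extracellular enzyme gene *cel3a* (TRIREDRAFT_76672) had 58.6, 51.0, and 59.7 in Δ*nsd3* libraries, against 75.3, 150.4, and 114 in WT, with no overlap. Its log2 fold change of −0.94 (SE 0.18, adjusted p = 0.00029) lay just under the threshold of 1, as did −0.96 for *cel3c*. The genes of the intracellular enzymes, *cel1a* at −0.40 and *cel1b* at −0.52, had adjusted p-values of 0.25 and 0.16. WT replicate 2 decided the value of *cel1b*, which had 24.2 there and 94.2 and 77.0 in the other WT libraries, so that it was called down at −1.11 without that library.

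Of the 4 hemicellulose genes listed, 3 were called down, with and without WT replicate 2. No xylanase gene was on the list. The acetyl xylan esterase gene *axe1* (TRIREDRAFT_73632) had 88.1, 147, and 106 rescaled TPM in Δ*nsd3* libraries, against 289, 540.2, and 460.1 in WT. Even the highest Δ*nsd3* value was well under the lowest in WT (log2 fold change −1.89, SE 0.30, adjusted p = 4.4e-05). The β-mannanase gene *man5a* (TRIREDRAFT_56996) had 83.9, 81.5, and 79.1 in Δ*nsd3* libraries, against 263, 300.5, and 304 in WT, and its replicates were tight in both strains (log2 fold change −1.81, SE 0.42, adjusted p = 0.0014). TRIREDRAFT_54219, an acetyl xylan esterase of family CE5, had only 2.42, 9.22, and 4.88 in Δ*nsd3* libraries, against 12.1, 13.3, and 15.2 in WT. Its log2 fold change of −1.29 (adjusted p = 0.0011) became −0.90 without Δ*nsd3* replicate 1 and was then not called. *axe2*, for another acetyl xylan esterase, had 0.19 with overlapping groups.

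**Figure D2:**
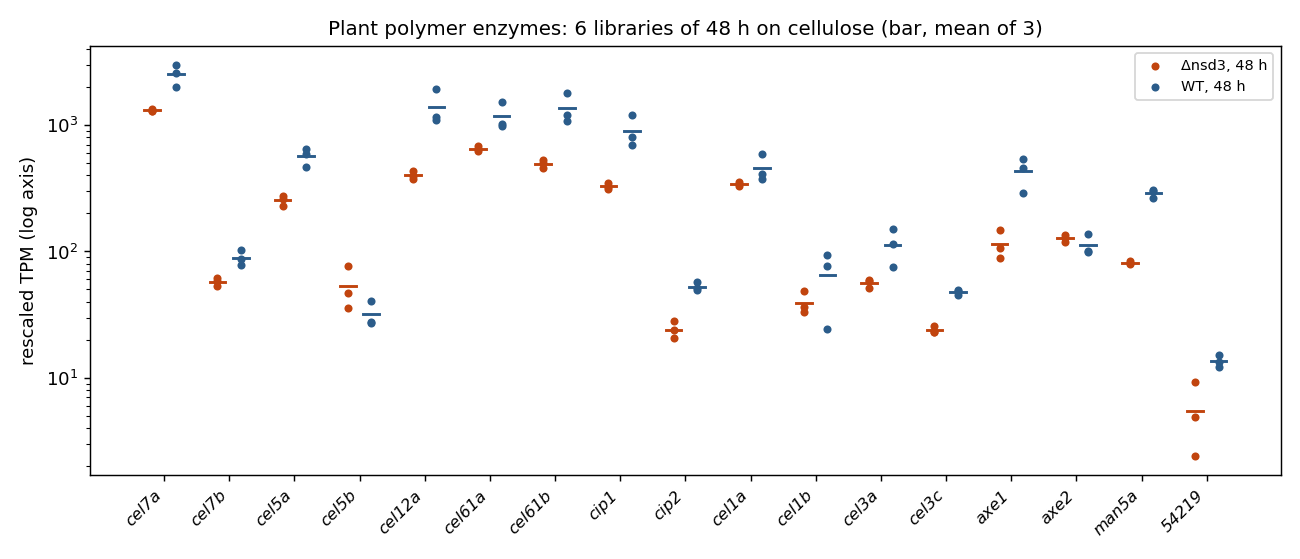
Rescaled TPM (log axis) of 17 genes for plant polymer breakdown in the 3 Δ*nsd3* libraries (left of each pair) and the 3 WT libraries (right) after 48 h on cellulose. Each point is a library and each bar the mean of 3. In 14 of the 17 genes all Δ*nsd3* points lie below all WT points, and *cel7a* holds the highest values, with 1346, 1299, and 1287 against 2596, 2009, and 2967.

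For several of these enzymes the strain effect at 48 h was not that at 8 h. The difference of the log2 fold changes (48 h minus 8 h, a contrast of the same limma fit) passed an adjusted p of 0.05 in the negative direction for 6 of the 17 genes and in the positive direction for none, beside 12.8% and 11.4% of all genes tested. *axe1* at 8 h had 3451, 2769.7, and 2574 in Δ*nsd3* libraries, against 1612, 1701, and 1381 in WT. There the Δ*nsd3* libraries were the higher ones, with a log2 fold change of 0.90, so that the difference between times was −2.79 (SE 0.42, adjusted p = 9.7e-05). TRIREDRAFT_54219 had 648, 306, and 344 in Δ*nsd3* libraries at 8 h, against 157, 137, and 94.4 in WT. It was called up at 8 h (1.68) and down at 48 h, a difference of −2.98 (adjusted p = 3.5e-05).

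The turn was of the same kind in *cel3a*, at 0.52 after 8 h and −0.94 after 48 h (difference −1.46, adjusted p = 0.00036), and in *cel61a*, at 1.05 after 8 h and −0.83 after 48 h (difference −1.88, adjusted p = 0.018). *cel5b* was called up at 8 h (1.72) and not at 48 h, and *cip2* differed by −0.80. No difference was detected for *cel12a*, which was already called down at 8 h (−2.83 at 8 h, difference 1.07, adjusted p = 0.2), or for *man5a* (−1.73 at 8 h, difference −0.08, SE 0.59).

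The regulators of these genes were not called. Xyr1's gene *xyr1* (TRIREDRAFT_122208) had 110.1, 83.5, and 83.9 in Δ*nsd3* libraries, against 102, 66.5, and 137 in WT. The groups overlapped, at −0.09 on the log2 scale (SE 0.21, adjusted p = 0.74). The repressor gene *cre1* (TRIREDRAFT_120117) had 136, 130.2, and 147 in Δ*nsd3* libraries, against 99.4, 52.9, and 133 in WT, and its 0.63 (adjusted p = 0.019) was 0.26 without WT replicate 2, the lowest WT library. Across the 8 regulators tested the median was 0.07, or −0.21 without that library, with no call in either fit.

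Of the 4 sugar transporter genes listed, 1 was called, and it was called up. These are a small part of the sugar transporters the study examined. They lack *crt1*, which the study reported as upregulated in every condition it analyzed. Tr44175 (TRIREDRAFT_44175), a transporter of cellobiose and sophorose, had 78.3, 114, and 87.7 in Δ*nsd3* libraries, against 20.9, 19.3, and 20.3 in WT. The Δ*nsd3* libraries were all far above WT, by 2.14 on the log2 scale (SE 0.22, adjusted p = 2.0e-07). It was upregulated to a like extent at 8 h (2.05, difference 0.09, SE 0.31). The glucose transporter gene *hxt1* had 0.55 (adjusted p = 0.018), Tr67752 0.26 (adjusted p = 0.19), and the lactose permease gene *lac1*, at 1.59 to 3.44 in the Δ*nsd3* strain and 1.91 to 2.81 in WT, 0.02. Calls of both siderophore transporters on the list changed in several fits, among them the fit without WT replicate 2. TRIREDRAFT_67026 was called up at 1.04 with all libraries and had 0.84 without it, and TRIREDRAFT_78465 had −0.89 with all libraries and was called down at −1.15 without it.

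On the list for use of galactose and pentoses, 1 of 8 genes was called up and the other 7 were not called. The gene called, *lxr1* (TRIREDRAFT_74194), was listed by its symbol alone, which stands for L-xylulose reductase, and its part in pentose use was not tested. It had 1163, 2244, and 2478 in Δ*nsd3* libraries, against 428, 818, and 637 in WT. All Δ*nsd3* libraries were above WT, with a log2 fold change of 1.62 (SE 0.29, adjusted p = 0.00016), and the effect was smaller than at 8 h, when it was 3.23 (difference −1.61, adjusted p = 0.0073). The xylose reductase gene *xyl1* had −0.74 (adjusted p = 0.00071), the L-arabinitol dehydrogenase gene *lad1* −0.51, and the galacturonic acid reductase gene *gar1* −0.44, all under the threshold for a call. For these 3 genes the difference from 8 h passed, at −0.99, −1.07, and −1.19. The galactokinase gene *gal1* had 0.87 and the uridylyltransferase gene *gal7* −0.71, so genes of 1 pathway had opposite signs.

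Most genes of central carbon metabolism were not called, and the median of the 17 was 0.00. Another 3 were called up. *idh2* (TRIREDRAFT_74983), for a subunit of isocitrate dehydrogenase in the citric acid cycle, had 356, 439, and 560.1 in Δ*nsd3* libraries, against 93.7, 49.0, and 85.5 in WT. The strains were far apart, at a log2 fold change of 2.58 (SE 0.20, adjusted p = 4.5e-09). The glycolytic gene *pgk1* (TRIREDRAFT_21406), for phosphoglycerate kinase, had 576, 1103, and 1115 in Δ*nsd3* libraries, against 204, 229.8, and 326 in WT. It was called up at 1.84 (SE 0.26, adjusted p = 1.4e-05), without overlap, while the enolase gene *eno1* had 0.23 (adjusted p = 0.38) and overlapping groups. *ugp1*, for the UDP-glucose pyrophosphorylase that supplies cell wall synthesis, had 284, 258, and 273 in Δ*nsd3* libraries, against 154, 93.6, and 149 in WT, and its 1.07 became 0.84, no longer called, without WT replicate 2.

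The ATP citrate lyase genes *acl1* and *acl2*, whose enzyme makes cytosolic acetyl-CoA, had log2 fold changes of 0.00 and 0.08 at 48 h and −1.24 and −1.08 at 8 h. The differences of 1.24 and 1.17 passed the test (adjusted p = 3.9e-05 for each). The acetyl-CoA synthetase gene *acs1* went the other way, at −0.64 after 48 h and 0.40 after 8 h (difference −1.04, adjusted p = 0.0018). The glyoxylate cycle gene *acu9*, for malate synthase, had −0.82 and was called down at −1.05 without WT replicate 2, whereas the isocitrate lyase gene *acu3* had −0.14.

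Chitin and *N*-acetylglucosamine genes split. Fungal cell walls contain chitin, which chitinases cut and *N*-acetylglucosaminidases finish. Of 20 listed genes, 19 were in the table and 15 passed the filter, and 3 were called up and 1 down with a median of −0.25. The glucosaminidase gene *nag2* (TRIREDRAFT_23346) had 289, 531, and 669 in Δ*nsd3* libraries, against 31.1, 55.6, and 147 in WT. The groups were apart although both varied, with a log2 fold change of 2.86 (SE 0.45, adjusted p = 4.4e-05), and *nag1*, for the related enzyme, had 0.21 (adjusted p = 0.31). *chi18-rel1* (TRIREDRAFT_65162) had 55.4, 40.9, and 34.8 in Δ*nsd3* libraries, against 106, 121, and 103 in WT. It was the gene of the list called down (−1.33, SE 0.23, adjusted p = 0.00013), and it differed from 8 h by −1.09.

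The calls of the 2 chitinases among those upregulated did not hold in all fits. *chi18-7* had 234, 354, and 383 in Δ*nsd3* libraries, against 97.6, 170.5, and 229.6 in WT, and the value of 1.01 (adjusted p = 0.0071) became 0.68 without WT replicate 1. In the fit of the 6 libraries alone its adjusted p was 0.071. *chi18-2* had 142, 281, and 288 in Δ*nsd3* libraries, against 25.4, 44.4, and 212 in WT, so the groups overlapped, and its 1.83 (adjusted p = 0.021) had an adjusted p of 0.077 without WT replicate 2. *chi18-15* was nearly absent at 8 h, at 0 to 0.0924 in the Δ*nsd3* strain and 0 to 0.0377 in WT, and after 48 h had 21.3, 14.6, and 12.9 in Δ*nsd3* libraries, against 29.3, 42.6, and 25.4 in WT. It was lower without overlap but not called (−0.95, adjusted p = 8.7e-05).

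Hydrophobins, small secreted proteins that coat hyphae and spores, included the most abundant transcript of these libraries. *hfb2* (TRIREDRAFT_119989) took 7.42, 6.56, and 6.52% of the deposited TPM in Δ*nsd3* replicates 1 to 3, against 15.1, 15.3, and 13.1% in WT. The share in each Δ*nsd3* library was thus well below that in each WT library, with rescaled TPM of 51202, 52999, and 56794 in Δ*nsd3* libraries, against 107853, 142226, and 102652 in WT. The log2 fold change of −1.12 (SE 0.26, adjusted p = 0.0016) became −0.97, under the threshold, without WT replicate 2, and in the fit of the 6 libraries alone the adjusted p was 0.083. At 8 h the deficit was larger (−2.27, difference 1.15, adjusted p = 0.027). *hfb3* had −0.48 (adjusted p = 0.11) at 48 h and −1.65 at 8 h, and *hfb1* 0.98 with overlapping groups (adjusted p = 0.16).

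Both listed genes of defence against reactive oxygen were called up late. The superoxide dismutase gene *sod1* (TRIREDRAFT_123029) had 201, 366, and 294 in Δ*nsd3* libraries, against 70.5, 75.7, and 63.5 in WT. No Δ*nsd3* library came near the WT range (log2 fold change 1.98, SE 0.26, adjusted p = 6.6e-06). Earlier, at 8 h, the gene had 506, 427, and 689 in Δ*nsd3* libraries and 478, 348, and 339.7 in WT (0.46, adjusted p = 0.16), and the difference of 1.52 passed (SE 0.37, adjusted p = 0.006). The catalase gene *cat1* (TRIREDRAFT_70600) was weakly expressed, with 1.83, 1.54, and 1.13 in Δ*nsd3* libraries, and was listed at 0 in all WT libraries. No fold is given for it, and its difference on the log2(rescaled TPM + 1) scale was 1.31 (SE 0.11, adjusted p = 7.5e-09).

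**Figure D3:**
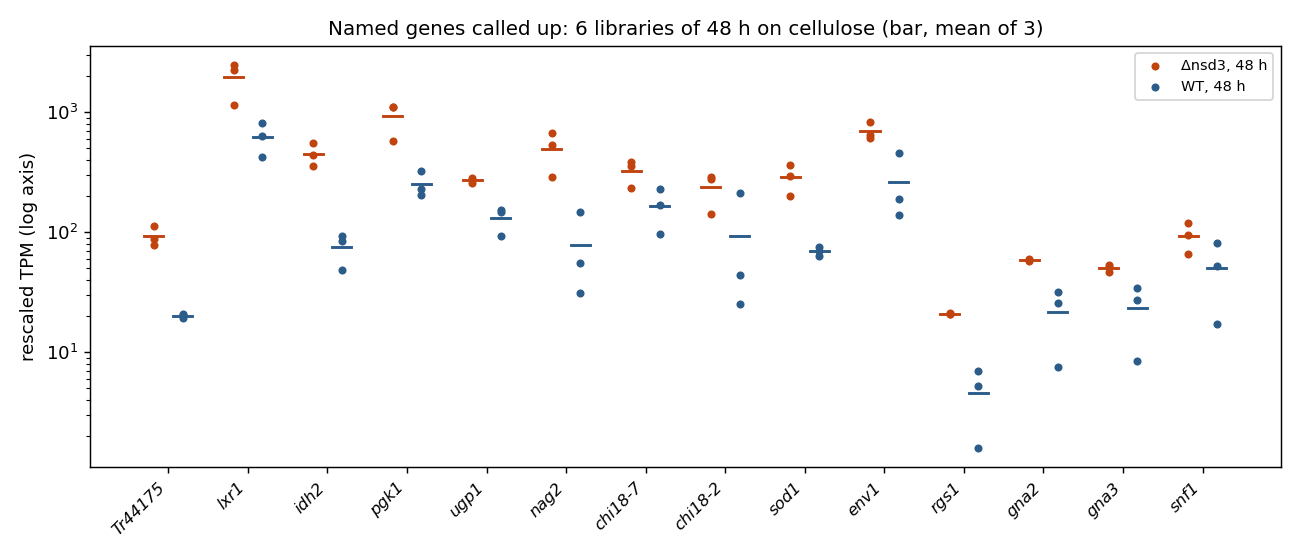
Rescaled TPM (log axis) after 48 h on cellulose of 14 genes from the function lists that were called up, in the 3 Δ*nsd3* libraries (left of each pair) and the 3 WT libraries (right). Points are libraries and bars are means of 3. *idh2* has 356, 439, and 560.1 against 93.7, 49.0, and 85.5, and the lowest WT point of *gna2*, *gna3*, *rgs1*, and *snf1* is WT replicate 2.

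A few signaling genes were called up. Of 23 genes for G proteins, kinases, and related factors, 4 were called up and none down, beside 8.80% and 4.49% of all genes tested. Without WT replicate 2, 3 were called up, beside 6.42% of all genes tested. The median of 0.35 fell to 0.08 without that library. That library was low in these genes, with a median of −0.83 on the log2 scale relative to the other WT libraries, beside 0.01 over all genes tested, and its part in each value is given by the fit without it. *rgs1* (TRIREDRAFT_54395), for a regulator of G-protein signaling, had 20.7, 20.8, and 21.4 in Δ*nsd3* libraries, against 5.22, 1.59, and 6.98 in WT. The groups were well apart at a log2 fold change of 2.12 (SE 0.26, adjusted p = 2.0e-06), and it was called at 1.64 without WT replicate 2. The Gα subunit gene *gna2* (TRIREDRAFT_2845) had 60.0, 57.3, and 59.0 in Δ*nsd3* libraries, against 25.7, 7.50, and 31.7 in WT, at 1.62 (SE 0.29, adjusted p = 0.00019) with all libraries and 1.02 without WT replicate 2.

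Calls of the other members rested on that library. The Gα subunit gene *gna3* had 1.29 with it and 0.71 without it, and the kinase gene *snf1* 1.09 with it and 0.48 without it, neither called in the second fit. *tmk3*, for the stress-activated MAP kinase, moved the other way, with 331, 394, and 556 in Δ*nsd3* libraries against 143, 265, and 244 in WT, and was just short of a call at 0.99 but called at 1.16 without it. Of the 23 genes, 7 had a more positive strain effect at 48 h than at 8 h, beside 11.4% of all genes tested. WT replicate 2 was the lowest WT library at 48 h in each of these 7, and the count includes it. Among the 7 were the kinase gene *cot1* (0.20 at 48 h, −1.14 at 8 h, difference 1.35, adjusted p = 0.00012) and the Gα subunit gene *gna1* (0.59 at 48 h, −0.56 at 8 h, difference 1.14). Over the alternative fits the 48 h effect ranged from −0.03 to 0.35 for *cot1* and from 0.15 to 0.82 for *gna1*.

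*env1* (TRIREDRAFT_81609), a light-response gene that also affects cellulase expression in this fungus, had 646, 612, and 827 in Δ*nsd3* libraries, against 139.5, 189, and 459.5 in WT. It was called up without overlap (1.58, SE 0.34, adjusted p = 0.00093), and at 1.44 without WT replicate 2. The photoreceptor genes *blr1* and *blr2* had 0.44 and 0.55 with all libraries and 0.01 and 0.06 without WT replicate 2.

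Genes for growth and protein handling were not called. The 39 ribosomal protein genes had a median of −0.25, 34 of them lower in the Δ*nsd3* strain, and 5 had an adjusted p under 0.05. Without WT replicate 2, in which these genes were higher by a median of 0.77 than in the other WT libraries, the median was −0.02. The 6 proteasome genes had a median of −0.29 at 48 h, or −0.10 without that library. At 8 h 4 of them were called down (5.95% of all genes tested were), with a median of −1.12. For 5 of the 6 the difference between times passed in the positive direction, beside 11.4% of all genes tested, as in *psa3* (−0.28 at 48 h, −1.47 at 8 h, difference 1.20, adjusted p = 0.00061). The 12 genes of the secretory pathway had no call and a median of 0.11, among them *bip1* (−0.03) and *pdi1* (−0.37), a chaperone and a folding enzyme of the endoplasmic reticulum. Neither the 3 histone genes (median −0.24) nor the 7 genes of amino acid metabolism (median 0.24) nor the 2 ATP synthase genes (median 0.30) held a call.

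**Figure D4:**
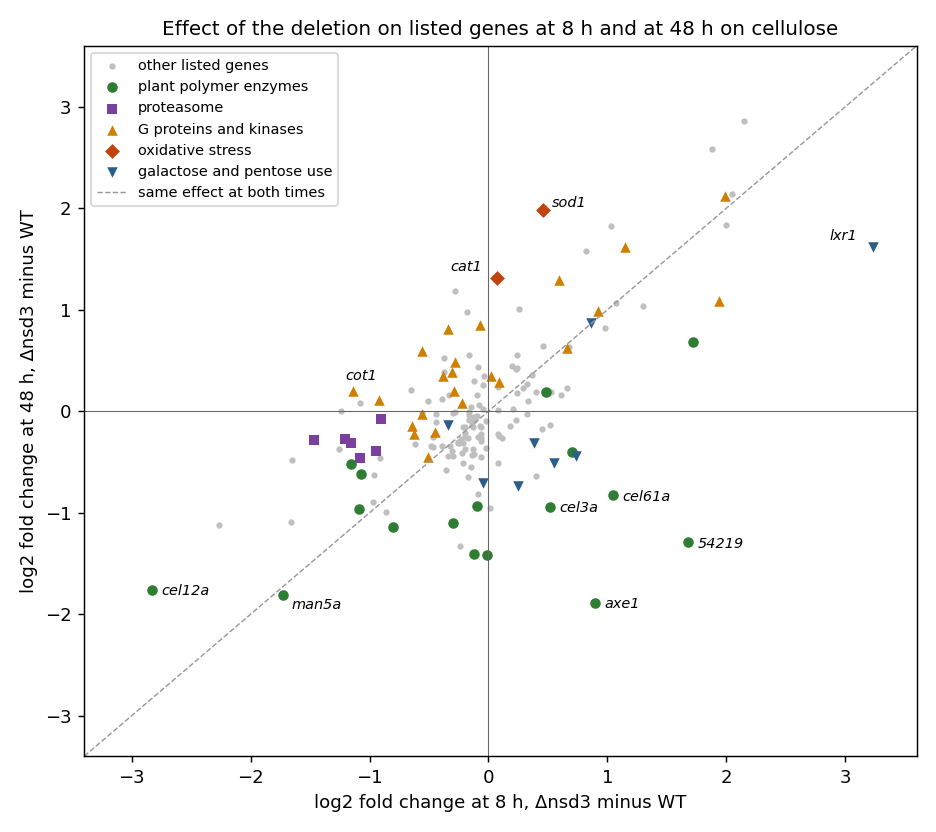
Log2 fold change (Δ*nsd3* minus WT) of the listed genes at 8 h (horizontal axis) and at 48 h (vertical axis) on cellulose, with *nsd3* left out. Each point is a gene. *axe1* lies at 0.90 on the 8 h axis and −1.89 on the 48 h axis, *lxr1* at 3.23 and 1.62, and *acl1* at −1.24 and 0.00.

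Late effects reached well beyond the listed genes. Over all genes, the strain effect differed between 48 h and 8 h in 1920 genes (24.2%), with 906 more positive at 48 h and 1014 more negative. The 12 cellulose libraries alone gave 1054. Of the 698 genes called up at 48 h, the effect was larger at that time in 125 and smaller or opposite in 65, and in 508 the difference did not pass. Of the 356 called down, it was larger at 48 h in 152, smaller or opposite in 27, and not past the threshold in 177.

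A large effect relative to 8 h on cellulose lay in a row of neighbouring genes. Values of this row on glucose and glycerol are not given here, so whether its effect is particular to late cellulose was not tested. In the order of the reference gene table (RefSeq, assembly v2.0 of strain QM6a), 10 genes in a row that end with *axe1* and *cip1* were all called down. The row was picked by these calls, so its low values at 48 h are no separate support, and they enter the differences from 8 h as well. In all 10 the Δ*nsd3* libraries lay below WT without overlap, beside 24.9% of all genes tested. The median log2 fold change of the 10 was −3.65 at 48 h and −0.07 at 8 h. At 8 h 3 of them were already called down, TRIREDRAFT_43701 at −2.83, TRIREDRAFT_102497 at −1.18, and TRIREDRAFT_102500 at −1.33, and 7 were not called. For 9 of them, all but *cip1*, the difference between the times passed the test. The first 8 genes carry no name in that table.

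The 8 unnamed genes were low in the Δ*nsd3* strain at both times, and in WT every 48 h library was above every 8 h library. TRIREDRAFT_43701 had 0.638, 35.8, and 1.02 in Δ*nsd3* libraries at 48 h, against 962, 368, and 949 in WT. The log2 difference was −7.14 (SE 0.69, adjusted p = 9.7e-08), with the highest Δ*nsd3* value in replicate 2, and 8 h gave 1.77, 0.842, and 0.807 in Δ*nsd3* libraries against 12.6, 13.5, and 15.8 in WT. TRIREDRAFT_73623 had 0.109, 3.19, and 0 at 48 h in Δ*nsd3* libraries, against 146, 78.4, and 150.3 in WT. At 8 h no library of either strain exceeded 0.127, so little strain effect could show then. The strain effects of −6.18 at 48 h and 0.08 at 8 h differed by −6.26 (SE 0.47, adjusted p = 2.3e-08).

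The same held for TRIREDRAFT_73631, with 2.08, 8.16, and 3.43 in Δ*nsd3* libraries at 48 h, against 111, 74.4, and 147 in WT. It had 1.49, 2.24, and 2.21 in Δ*nsd3* libraries and 0.495, 0.478, and 0.536 in WT at 8 h, and the difference of the effects was −5.41. The other unnamed genes of the row, TRIREDRAFT_73618, TRIREDRAFT_73621, TRIREDRAFT_102497, TRIREDRAFT_102499, and TRIREDRAFT_102500, had −3.36, −4.46, −3.93, −2.11, and −2.27 at 48 h. WT replicate 2 was the lowest WT library in all 8 unnamed genes, and without it 9 of the 10 genes were called down, *cip1* being the exception.

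**Figure D5:**
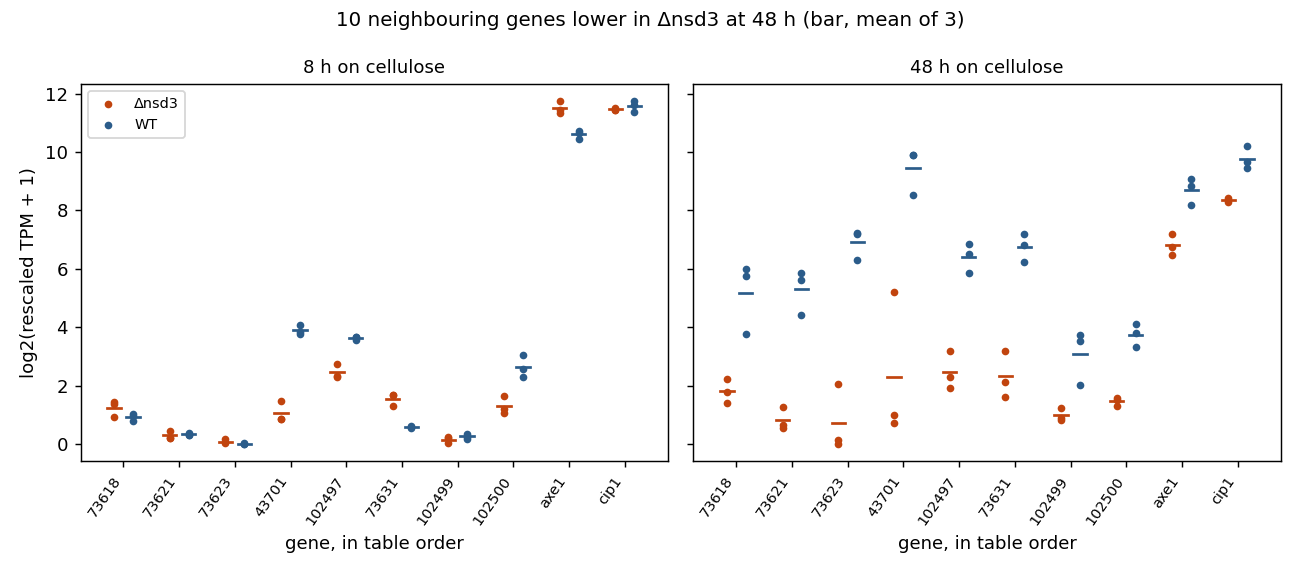
Log2(rescaled TPM + 1) of the 10 neighbouring genes that end with *axe1* and *cip1*, at 8 h and at 48 h on cellulose, in the Δ*nsd3* libraries (left of each pair) and the WT libraries (right). Points are libraries and bars are means of the 3 log values. At 48 h the Δ*nsd3* points lie below the WT points in all 10 genes, and the median log2 fold change is −3.65, against −0.07 at 8 h. At 8 h 3 of the 10 genes were called down.

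The largest decreases and increases outside this row were in genes without a name. TRIREDRAFT_112567 had 0, 1.34, and 0.137 in Δ*nsd3* libraries, against 402, 456, and 172 in WT (log2 fold change −7.84, SE 0.42), and TRIREDRAFT_70961 had 0, 0.448, and 0.0762 in Δ*nsd3* libraries, against 31.0, 84.7, and 35.3 in WT (−5.32). Both are among 20 consecutive genes of the reference table that stayed at or below 1.34 in all 12 Δ*nsd3* libraries of the study. Of these 20, 9 were tested and 7 called down at 48 h, and the low values in Δ*nsd3* libraries were not limited to late cellulose. The stretch was drawn by a limit of 1.5 on the Δ*nsd3* libraries alone. Outside the 7 called down, its genes were near 0 in WT too, with no WT library above 0.843 at 48 h. Whether this stretch is present in the Δ*nsd3* clone was not tested. The transcription factor gene TRIREDRAFT_112560 (−1.09) belongs to it as well, with 0, 0.0884, and 0 in Δ*nsd3* libraries, against 1.15, 1.06, and 1.35 in WT.

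TRIREDRAFT_123084 was a late case, with 3.94, 14.9, and 2.45 in Δ*nsd3* libraries at 48 h, against 1067, 441, and 770.3 in WT. At 8 h it had 2.06, 2.17, and 1.56 in Δ*nsd3* libraries and 3.02, 3.0, and 2.62 in WT, so that the effects of −6.78 and −0.41 differed by −6.38 (SE 0.50, adjusted p = 3.4e-08). TRIREDRAFT_5084 was called at 8 h and not at 48 h. It had 1608, 1590.2, and 1633 in Δ*nsd3* libraries at 48 h, within the WT range of 1184, 3479.9, and 1353, but 653, 609.7, and 1009 in Δ*nsd3* libraries against 14.4, 9.58, and 12.7 in WT at 8 h (difference −5.96). In WT it was thus high at 48 h and low at 8 h, while in the Δ*nsd3* strain it was high at both.

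Some effects turned upward. TRIREDRAFT_81383 had 164, 161, and 179 in Δ*nsd3* libraries at 48 h, against 66.0, 42.2, and 65.0 in WT, and 73.4, 81.7, and 72.3 in Δ*nsd3* libraries at 8 h, against 218, 277, and 248 in WT. It was called down at 8 h (−1.69) and up at 48 h (1.55), a difference of 3.24 (adjusted p = 1.2e-05). TRIREDRAFT_121251 had 2.23 at 48 h and −0.89 at 8 h (difference 3.12), and TRIREDRAFT_69692 −0.68 at 48 h and −4.57 at 8 h (difference 3.89).

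The strongest increases were also large at 8 h. TRIREDRAFT_74020 had 132, 212, and 285 in Δ*nsd3* libraries at 48 h, against 5.30, 3.93, and 3.82 in WT. Its log2 fold change of 5.24 (SE 0.26, adjusted p = 8.2e-12) compares with 4.92 at 8 h. TRIREDRAFT_4454 had 148, 262, and 312 in Δ*nsd3* libraries, against 5.38, 5.44, and 8.37 in WT (4.99), and TRIREDRAFT_73519 802, 1461, and 1847 against 42.4, 37.3, and 123 in WT (4.45). TRIREDRAFT_81819 at 5.03 and TRIREDRAFT_82512 at 4.39 complete the 5 largest increases that held without WT replicate 2, and all 5 had differences from 8 h that did not pass the test. Among transcription factors that the study had considered as relatives of a yeast regulator, TRIREDRAFT_58897 had −0.26 and TRIREDRAFT_112342 1.18, and the second rested on WT replicate 2, with 67.1, 65.1, and 75.1 in Δ*nsd3* libraries against 55.5, 6.79, and 65.5 in WT and 0.19 without that library.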

How the data were processed

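RNA from mycelia was sequenced from stranded polyA libraries. Per the labels and the study's methods, the authors trimmed reads with Trim Galore 0.6.7, mapped them with HISAT2 2.2.1 to the *T. reesei* reference genome, counted them per gene with featureCounts, and tested the counts with DESeq2. The authors deposited TPM values, 8755 genes by 24 libraries. Read counts were not used here, so the DESeq2 model was not repeated. Because TPM is relative within a library, a few very abundant transcripts shift all others, and libraries were therefore rescaled by the median of ratios over 7681 genes above 0 in every library.

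A filter of 1 TPM or more in 3 or more libraries left 7933 genes, tested on log2(rescaled TPM + 1) with limma 3.58.1 in R 4.3.3 (1 mean per group over 24 libraries, eBayes with trend, two-sided, Benjamini-Hochberg). Calls required a log2 change of 1 or more in either direction and an adjusted p under 0.05. An exact permutation test of 3 against 3 libraries cannot go below p = 0.1 and was not used. Depth was estimated from TPM steps, where 78.4 to 80.5% of low values in the 6 libraries came within 0.1 of whole reads. The model was tested on simulated data with large changes planted in well expressed genes only. Changes near the threshold and changes of weak transcripts were not simulated. Summaries used pandas 2.3.3 and numpy 2.4.6 under Python 3.11.15, with figures by matplotlib 3.10.9.

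The members and lists were chosen with earlier results of these data known. A rule that sorted genes by product keywords could not be applied, since the reference gene table holds no products, and the lists were remade from symbols and from identifiers in the paper. The table matched 8750 identifiers, 225 of them with a symbol. Lists are described by counts and medians, without a test. Named genes are *nsd3*, the 5 genes with the largest change in each direction and up to 3 in each direction per list (called with and without WT replicate 2, strains not overlapping), the 3 largest and 3 smallest differences from 8 h, genes the paper names with an identifier or symbol, and runs of at least 4 neighbours with the same call. The rule also asked for genes of pyrimidine synthesis, for which the table has no symbol. Other genes were named after their values were seen, among them list members given to describe their list.

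Replicates with the same number deviated together (correlations of 0.21, 0.168, and 0.298 between deviations from the group means, all above 0.1). They were taken as pairs only in the fit with a replicate block. The main fit, with its SEs and p-values, leaves the pairing out. Alternatives were other scalings (TPM as deposited, factors within a condition, quantile), pseudocounts of 0.1 and 5, no filter or 5 TPM, only the samples compared, a replicate block, no trend, array weights, adjusted p alone, and each library left out. A fit of only the samples compared without WT replicate 2 was added after seeing the data.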

Additional observations from a re-analysis of the deposited data

Results flagged for a closer look

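The strain effect (log2 fold change, Δ*nsd3* minus WT) differed between 48 h and 8 h on cellulose in 1920 genes by the limma contrast of the difference (adjusted p under 0.05), and the genes given here are members of the lists and rows, the genes chosen by rank, and the abundant or other named genes for which it passed. A negative difference means a lower value of Δ*nsd3* relative to WT at 48 h than at 8 h.

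Among plant polymer enzymes the differences were −1.04 for *cel5b*, −1.88 for *cel61a*, −0.80 for *cip2*, −1.46 for *cel3a*, −2.79 for *axe1*, and −2.98 for TRIREDRAFT_54219. In sugar use they were −0.66 for *gal7*, −1.07 for *lad1*, −1.61 for *lxr1*, −0.99 for *xyl1*, and −1.19 for *gar1*. Genes of central metabolism had 0.89 for *hxk1*, 1.24 for *acl1*, 1.17 for *acl2*, −0.65 for *acu3*, −0.74 for *acu9*, and −1.04 for *acs1*.

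Cell wall and surface genes had −0.96 for *chi18-15*, −1.09 for *chi18-rel1*, 0.86 for *nag1*, 1.15 for *hfb2*, and 1.18 for *hfb3*. The secretory genes *pdi1*, *sar1*, and *nsf1* had 0.89, −0.63, and 0.60, and the proteasome genes *psa3*, *psa5*, *psa7*, *psb4*, and *psb5* had 1.20, 0.94, 0.85, 0.82, and 0.62. Signaling genes had 1.14 for *gna1*, 1.14 for *tgb1*, 0.70 for *gbg1*, 0.49 for *tmk2*, 1.04 for *ras1*, 0.78 for *rac1*, and 1.35 for *cot1*. WT replicate 2 at 48 h was the lowest WT library in each of these 7. The differences given include that library, and those without it are not given here gene by gene. The oxidative stress genes *sod1* and *cat1* had 1.52 and 1.24, and the transcription factor gene TRIREDRAFT_112560 had 0.58.

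In the row of neighbours the differences were −3.69 for TRIREDRAFT_73618, −4.43 for TRIREDRAFT_73621, −6.26 for TRIREDRAFT_73623, −4.30 for TRIREDRAFT_43701, −2.75 for TRIREDRAFT_102497, −5.41 for TRIREDRAFT_73631, −1.99 for TRIREDRAFT_102499, and −0.94 for TRIREDRAFT_102500. Elsewhere they were −6.38 for TRIREDRAFT_123084, −1.61 for TRIREDRAFT_70961, −5.96 for TRIREDRAFT_5084, 3.12 for TRIREDRAFT_121251, 3.24 for TRIREDRAFT_81383, and 3.89 for TRIREDRAFT_69692. The second downregulated row of neighbours had −1.0 for TRIREDRAFT_122975, −1.65 for TRIREDRAFT_66077, −2.14 for *ooc1*, and −1.24 for TRIREDRAFT_65736. Abundant transcripts had −2.69 for TRIREDRAFT_73516, −2.25 for TRIREDRAFT_123236, −1.54 for TRIREDRAFT_81136, and −0.70 for TRIREDRAFT_22386, and the named genes *min1* and *cro1* had −3.57 and 1.22. Groups of 3 libraries are too small for a search for single outlying samples.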

How the results depend on the processing

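Of 4260 combinations of a gene (237) and a setting, 4100 kept the call or the lack of one, 119 lost a call, and 41 gained one. The sign turned in 129 of the 4100, all in genes not called (42 genes, at most 0.42 in size with all libraries), and in no called gene. With 1 library left out, 509 to 915 genes were called up, 310 to 490 down, and 1556 to 2532 differed between 48 h and 8 h. The lowest count up (509) came without WT replicate 2 and the highest (915) without WT replicate 3. A pseudocount of 5 gave 215 genes down. Adjusted p alone gave 1881 up and 1909 down. Array weights gave 3034 differences between times, and only the samples compared 1054. Quantile normalization gave 682 up and 469 down, TPM as deposited 737 and 330. With the replicate block there were 700 up, 356 down, and 2152 differences, and of the genes named it changed the call of *cel61b* alone.

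List medians moved as follows. Leaving out 1 library gave −1.75 to −1.31 for hemicellulose enzymes, 0.28 to 0.50 for transporters, −0.15 to 0.07 for central carbon metabolism, −0.04 to 0.25 for the secretory pathway, −0.21 to 0.20 for cellulase regulators, 0.35 to 0.78 for light sensing, and −0.03 to 0.28 for amino acid metabolism. Array weights gave −0.96 for hemicellulose enzymes, −0.13 for central carbon metabolism, −0.41 for histones, −0.22 for regulators, and 1.79 for oxidative stress. Quantile normalization gave −0.89 for β-glucosidases, −0.16 for central carbon metabolism, and 0.00 for hydrophobins. It also set *hfb2* to 0.00, since it gives the top gene of every library the same value. A pseudocount of 5 gave −1.32 for hemicellulose enzymes and 1.15 for oxidative stress, and one of 0.1 gave 2.98 for oxidative stress and −1.82 for the transcription factors. No filter gave −0.01 for chitinases, and a filter at 5 TPM, which leaves *sod1* alone, 1.98 for oxidative stress. Only the samples compared without WT replicate 2, a setting chosen after seeing the data, gave 0.28 for transporters, −0.15 for central carbon metabolism, −0.04 for the secretory pathway, −0.21 for regulators, and −0.03 for amino acid metabolism. Where no construction is named, the cause was not tested.

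With only the samples compared, 12 of the genes lost their call. Those of the lists were *chi18-2*, *chi18-7*, *hfb2*, *gna3*, *snf1*, and TRIREDRAFT_112342, with adjusted p-values of 0.1, 0.071, 0.083, 0.079, 0.16, and 0.27. The others were TRIREDRAFT_78984, TRIREDRAFT_49193, TRIREDRAFT_1999, TRIREDRAFT_56771, and TRIREDRAFT_58525 from upregulated rows of neighbours and the abundant TRIREDRAFT_64667. The low transcripts *cat1* and TRIREDRAFT_112560 both lost their call with a pseudocount of 5, which shrinks changes between values this low.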

Other observations

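Other genes with a symbol were chosen after their values were seen. *min1* had 1072, 1413, and 1203 rescaled TPM in Δ*nsd3* libraries at 48 h, against 213, 155, and 442 in WT. It was called up without overlap (2.32, SE 0.41, adjusted p = 0.00015), and less so than at 8 h, when it had 5.89 (difference −3.57). *cro1*, *mata1*, *tr43896*, and *pap1* were called up at 1.71, 1.35, 1.22, and 1.03, also without WT replicate 2.

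Several of the most abundant transcripts, chosen by their mean level, differed between strains. TRIREDRAFT_110879 had 14177, 26097, and 31372 in Δ*nsd3* libraries, against 1437, 4242, and 10598 in WT (2.50, adjusted p = 0.0012), and was as different at 8 h (2.54). TRIREDRAFT_81136 was called up at 2.18. TRIREDRAFT_123236 had 6622, 5573, and 4087 in Δ*nsd3* libraries, against 18240.2, 31087, and 18751 in WT (−2.05, adjusted p = 2.5e-05). At 8 h it lay between 17.9 and 47.6 in both strains, so it is a late transcript that was lower in the Δ*nsd3* strain at 48 h.

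A second row of 4 neighbours was called down at 48 h with all libraries, and *ooc1* is its named member. *ooc1* had 2961, 2236, and 1763 in Δ*nsd3* libraries, against 6434, 11527, and 6271 in WT, where at 8 h no library of either strain exceeded 18.7. Its log2 fold change was −1.77 (adjusted p = 0.00026) and its difference from 8 h −2.14. TRIREDRAFT_122975 had −1.11, TRIREDRAFT_66077 −1.85, and TRIREDRAFT_65736 −1.26, and the last became −0.95, not called, without WT replicate 2. Another 6 rows of at least 4 neighbours were called up with all libraries, of which 3 had every member called without WT replicate 2. The longest, of 5 genes at 1.09 to 1.33, was not among those 3. Without that library TRIREDRAFT_63869 was called at 1.51, while TRIREDRAFT_63419, TRIREDRAFT_78984, TRIREDRAFT_63400, and TRIREDRAFT_49193 had 0.90, 0.25, 0.95, and 0.63.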
